A study of Homo sapiens with 6 samples.

Results

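The 8 genes described here, TNC, LOX, MMP1, MMP13, LUM, DCN, CRISPLD2 and CEMIP2, encode proteins of the extracellular matrix or its turnover, and the secreted protein CRISPLD2, out of 14884 genes named on the arrays. They were chosen by their measured difference between the 2 groups of arrays and by their role, and the opposite directions of the collagenases MMP1 and MMP13 were part of that choice. Their differences are therefore given as descriptions, without a test. The knockdown arrays came from HK2 cells, an established proximal tubule epithelial line from human kidney, carrying a pLKO.1 lentiviral shRNA against PGC-1alpha, and the control arrays came from HK2 cells with a pLKO.1 shRNA against GFP. All cells had gone through puromycin selection, and RNA was taken on day 5 from transduction, with 24 hours of growth once selection had stopped. Each group held 3 arrays labelled as biological replicates, 6 in all, and no label says whether the cultures were transduced separately. The labels name a single shRNA construct per group, and PPARGC1A, which encodes PGC-1alpha, was not analysed here, so the labels were not checked against the target.

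The extracellular matrix around epithelial cells is a mesh of collagens, proteoglycans, glycoproteins and hyaluronan. Collagenases cut the triple helix of fibrillar collagen, TIMP proteins inhibit them, lysyl oxidases crosslink collagen and elastin, and small leucine-rich proteoglycans bind collagen fibrils. In kidney, the balance of matrix deposition and breakdown is known for its part in interstitial fibrosis. PGC-1alpha is a transcriptional coactivator known for its role in mitochondrial biogenesis.

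Every array gave log2 RMA values, which rank transcripts on a log2 scale after background correction and normalisation between arrays, with array medians between 5.00 and 5.04. Precision is limited by how few arrays there are. Over the 53617 probe sets, the correlation was 0.988 to 0.992 within a group and 0.982 to 0.987 between shPGC-1alpha and shGFP arrays. On the second principal component shGFP replicate 1 lay at 42.6, apart from the other control arrays at -19.7 and -26.9. Results that change without shGFP replicate 1 are named below. Replicate 1 was also the highest shPGC-1alpha array on that component, at 19.9 against -18.2 and 2.3. Of the proximal tubule markers, PAX8 averaged 11.82 with the shRNA against PGC-1alpha and 11.44 in shGFP cells. The endocytic receptors LRP2 and CUBN lay below 4.43, the 20th percentile of gene means, in both groups. They were picked as defining markers of that segment after their values were seen, and were the only 2 of 6 measured tubule markers below it. AQP1, PAX2 and ANPEP averaged 5.97, 5.46 and 4.72 in shPGC-1alpha cells and 5.97, 5.58 and 4.56 in shGFP cells. These 3 were also named after their values were seen. The 8 measured fibroblast markers had a mean level of 4.86 to 4.91 on shPGC-1alpha arrays and 4.81 to 5.00 on shGFP arrays. The 6 endothelial markers lay at 4.33 to 4.48 on shPGC-1alpha arrays and 4.33 to 4.47 on shGFP arrays, and the 5 leukocyte markers at 4.59 to 4.75 and 4.74 to 4.88. In such bulk RNA, fewer cells making a transcript and less of it per cell cannot be told apart.

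Of the 8 genes, 6 were higher and 2 were lower in cells with the shRNA against PGC-1alpha. CEMIP2 and TNC had the largest increases, 3.28-fold and 2.57-fold, and the collagenase MMP13 and the secreted protein CRISPLD2 were lower by 3.86-fold and 3.33-fold. All 8 passed an adjusted p of 0.05 in limma, a linear model fitted to every gene, as did 21.8% of all genes tested. That share takes in dim genes, and it was higher with genes below the 20th percentile of gene means left out, when 3661 of 11907 passed. For all 8, every shPGC-1alpha array lay on one side of every shGFP array, as for 38.7% of all genes. Since the same values chose the genes, these counts show nothing beyond the choice. Each gene was measured by a single probe set, so a second probe set could not be compared.

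**Figure D1:**
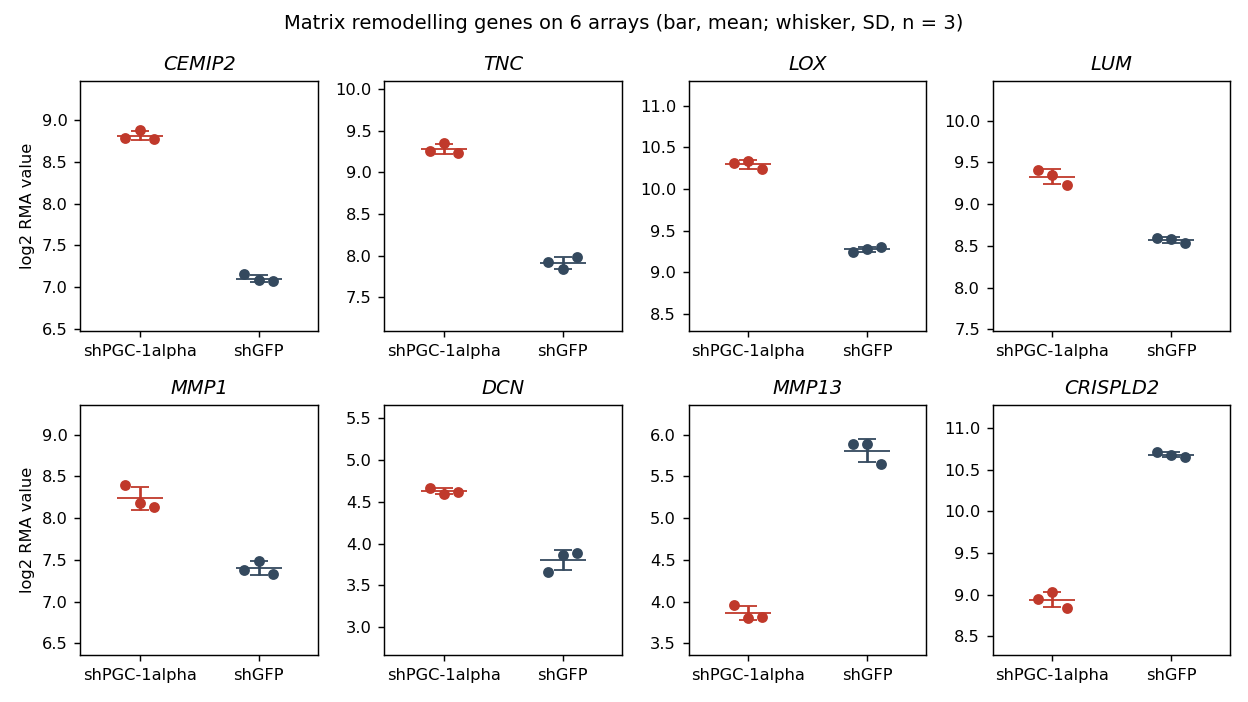
Log2 RMA values of the 8 genes on each array, with shPGC-1alpha arrays left and shGFP arrays right. Each panel spans 3 log2 units, points are arrays in the order of replicates 1 to 3, bars are means and whiskers are SDs. CEMIP2, TNC, LOX, LUM, MMP1 and DCN lie higher in shPGC-1alpha cells, and MMP13 and CRISPLD2 lie lower.

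MMP1, interstitial collagenase, cuts fibrillar collagens such as types I and III. Its log2 values were 8.40, 8.18 and 8.14 on the shPGC-1alpha arrays, against 7.38, 7.49 and 7.34 on the shGFP arrays. Every shPGC-1alpha array lay above every shGFP array, and shPGC-1alpha replicate 1 was the highest of its group. The means were 8.24 ± 0.14 with the shRNA against PGC-1alpha and 7.40 ± 0.08 with the control shRNA (SD, n = 3 each), a log2 difference of 0.84 (SE 0.09), or 1.79-fold.

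MMP13, collagenase 3, is best known for cutting type II collagen in cartilage. It read 3.96, 3.80 and 3.82 on the shPGC-1alpha arrays, against 5.89, 5.89 and 5.65 on the shGFP arrays. All shPGC-1alpha values lay below 4.43, the 20th percentile of gene means, and all shGFP values lay above it. The mean was 3.86 ± 0.08 in shPGC-1alpha cells and 5.81 ± 0.14 in shGFP cells (SD, n = 3 each), a log2 difference of -1.95 (SE 0.09), and 6 of the 14884 genes had larger decreases. Within arrays, the log2 distance between MMP1 and MMP13 was 2.79 larger with the shRNA against PGC-1alpha than with the control, or 6.89-fold.

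MMP1 and MMP13 lie in a cluster of metalloproteinase genes on chromosome 11, with MMP3 and MMP12 between them in the RefSeq order. MMP3 and MMP7 were not analysed here. Of 8 other measured genes from YAP1 to DYNC2H1, 0 passed an adjusted p of 0.05 in limma, against 21.8% of all genes. With so few genes this share is imprecise. Among them, 1 had an unadjusted p under 0.05, and 0 passed an ordinary two-sample test after adjustment. MMP12, macrophage elastase, averaged 3.45 ± 0.13 in shPGC-1alpha cells and 3.36 ± 0.32 in shGFP cells (SD, n = 3 each). MMP10, a stromelysin, averaged 2.37 ± 0.09 and 2.66 ± 0.25, with a limma adjusted p of 0.167 that was 0.023 without shGFP replicate 2. MMP8, MMP20 and MMP27 differed by 0.13, 0.18 and 0.23, with limma adjusted p of 0.667, 0.415 and 0.393, and like MMP10 and MMP12 they lay below the 20th percentile in both groups. Beyond the metalloproteinases, TMEM123 differed by -0.39 (limma adjusted p 0.0875), BIRC2, an inhibitor of apoptosis, by 0.16 (0.189) and YAP1, a Hippo pathway coactivator, by 0.08 (0.531).

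**Figure D2:**
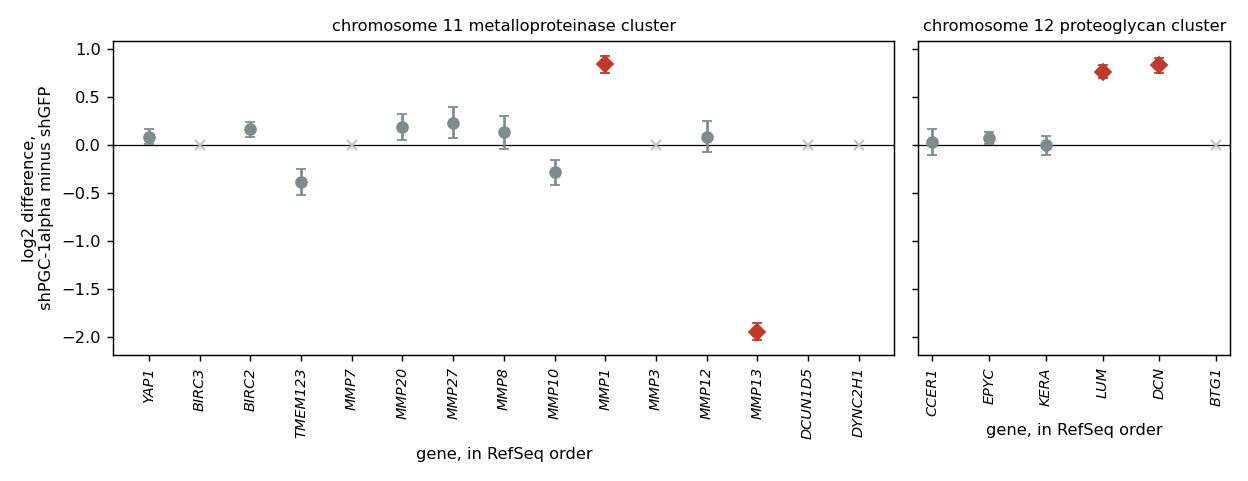
Log2 difference, shPGC-1alpha minus shGFP, for protein-coding genes in RefSeq order along the metalloproteinase cluster (left) and the leucine-rich proteoglycan cluster (right). Red diamonds are MMP1, MMP13, LUM and DCN, grey circles are the other measured genes, whiskers are SEs and crosses mark genes not analysed here. MMP1 lies at 0.84 and MMP13 at -1.95, and the other measured genes lie between -0.39 and 0.23.

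Other metalloproteinases moved in both directions. MMP15, a membrane-type enzyme, rose to 7.94 ± 0.13 in shPGC-1alpha cells, against 7.17 ± 0.11 in shGFP cells (SD, n = 3 each; limma adjusted p 0.00131). MMP19 rose by 0.43 (adjusted p 0.012) and MMP16, another membrane-type enzyme, by 0.51 (0.0251). MMP24 fell by 0.45 (limma adjusted p 0.00576) on its brighter probe set, and with its dimmer probe set the adjusted p was 0.465. MMP25 fell by 0.43 (limma adjusted p 0.0387). MMP16 did not pass once shGFP replicate 2, shGFP replicate 3 or shPGC-1alpha replicate 3 was left out (adjusted p up to 0.0796). The call of MMP25 was lost without any array other than shPGC-1alpha replicate 3 (adjusted p up to 0.112), and with the dimmest of its 3 probe sets (0.452). MMP14, the membrane-type enzyme that activates other metalloproteinases, averaged 8.27 ± 0.06 in shPGC-1alpha cells and 8.26 ± 0.08 in shGFP cells, with a limma adjusted p of 0.915. Of the 12 measured genes on this list of membrane-type and related enzymes, 3 rose and 2 fell, or 41.7% against 21.8% of all genes. The list also named gelatinases, but no gelatinase was among the measured genes. MMP14 was named after its values were seen.

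Of 6 measured inhibitors, 2 rose and 0 fell, or 33.3% against 21.8% of all genes. RECK, a membrane-anchored inhibitor, read 8.29, 8.16 and 8.19 on the shPGC-1alpha arrays, against 6.93, 6.95 and 7.08 on the shGFP arrays. It rose by 1.22 (SE 0.07, limma adjusted p 9.92e-05), with no overlap between the groups. TIMP2 rose by 0.34 (limma adjusted p 0.016), but did not pass when shGFP replicate 1 (0.0515) or 3 (0.0511) was left out. TIMP1, a secreted inhibitor of most metalloproteinases, averaged 10.69 ± 0.01 in shPGC-1alpha cells and 10.70 ± 0.02 in shGFP cells (SD, n = 3 each; limma adjusted p 0.948), and TIMP3 and TIMP4 differed by 0.12 and 0.05 (0.651 and 0.725). Among 5 activators, of which 1 (20%) passed, the proprotein convertase FURIN rose by 0.93 (SE 0.07, limma adjusted p 0.000225). Of 11 ADAM and related proteases 3 passed, or 27.3%. ADAM12 rose by 1.24 (SE 0.07, limma adjusted p 5.92e-05), ADAM17, which sheds TNF, rose by 0.33 (0.00967) and ADAM9 fell by 0.50 (0.00211). Without shPGC-1alpha replicate 3, 2 genes of that list fell.

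CEMIP2, a cell-surface protein reported to degrade hyaluronan, had log2 values of 8.79, 8.88 and 8.77 on the shPGC-1alpha arrays, against 7.15, 7.08 and 7.07 on the shGFP arrays. The lowest shPGC-1alpha array stood 1.63 above the highest shGFP array. The means of 8.81 ± 0.06 with the shRNA against PGC-1alpha and 7.10 ± 0.04 with the control (SD, n = 3 each) gave a log2 difference of 1.71 (SE 0.06), and 24 of the 14884 genes had larger increases. Its relative CEMIP averaged 4.44 ± 0.06 in shPGC-1alpha cells and 4.57 ± 0.10 in shGFP cells, with a limma adjusted p of 0.309. It was named after its values were seen.

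Of the 18 other measured hyaluronan genes, 2 rose and 1 fell, or 16.7%, against 21.8% of all genes. CD44, the main hyaluronan receptor, read 9.26, 9.17 and 9.21 on the shPGC-1alpha arrays, against 7.98, 7.87 and 7.80 on the shGFP arrays, a rise of 1.33 (SE 0.07, limma adjusted p 6.63e-05). HAS3, a hyaluronan synthase, read 8.96, 8.87 and 8.92 on the shPGC-1alpha arrays, against 7.40, 7.78 and 7.45 on the shGFP arrays, a rise of 1.37 (SE 0.11, limma adjusted p 0.000242). VCAN, the hyaluronan-binding proteoglycan versican, fell by 0.72 (SE 0.06, limma adjusted p 0.000296), and with its dimmer probe set the adjusted p was 0.0512. HAS2, another synthase, averaged 4.45 ± 0.42 in shPGC-1alpha cells and 3.82 ± 0.19 in shGFP cells, with a limma adjusted p of 0.0717, and was named after its values were seen. Without shGFP replicate 1, 2 hyaluronan genes fell.

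TNC encodes tenascin-C, a matrix glycoprotein known for its appearance in wounds and remodelling tissue. It read 9.26, 9.35 and 9.23 on the shPGC-1alpha arrays, against 7.92, 7.84 and 7.98 on the shGFP arrays, with 1.25 between the nearest arrays of the groups. The mean was 9.28 ± 0.06 with the shRNA against PGC-1alpha and 7.92 ± 0.07 with the control shRNA (SD, n = 3 each), a log2 difference of 1.36 (SE 0.07). The other measured tenascins, TNXB and TNN, averaged differences of -0.02 and 0.05, with limma adjusted p of 0.884 and 0.829, and were named after their values were seen.

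Of the 17 other measured matricellular genes, 1 rose and 3 fell, or 23.5% against 21.8% of all genes. CCN3 rose to 9.21 ± 0.17 in shPGC-1alpha cells, against 7.82 ± 0.02 in shGFP cells (SD, n = 3 each), a difference of 1.39 (SE 0.09, limma adjusted p 0.00014). CCN5, of the same family, fell by 0.52 (limma adjusted p 0.003), the elastic fibre protein FBLN1 fell by 0.35 (0.0103) and THBS3 fell by 0.32 (0.0194). THBS3 did not pass once shGFP replicate 1, shGFP replicate 3 or shPGC-1alpha replicate 2 was left out (adjusted p up to 0.0604), and without shGFP replicate 3 a second matricellular gene rose.

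LOX, lysyl oxidase, starts the crosslinking of collagen and elastin and is also a known hypoxia-responsive gene. Its log2 values were 10.31, 10.33 and 10.24 on the shPGC-1alpha arrays, against 9.24, 9.28 and 9.30 on the shGFP arrays. The groups stood 0.935 apart at their nearest arrays, and the range within a group was at most 0.09. The log2 difference was 1.02 (SE 0.06), or 2.03-fold. Its 4 relatives did not pass, with LOXL1 at -0.03, LOXL2 at 0.06, LOXL3 at -0.06 and LOXL4 at -0.11 and limma adjusted p of 0.262 to 0.765, as seen after the choice of LOX. Among 9 other genes of collagen modification, 3 rose and 0 fell, or 33.3% against 21.8% of all genes. The collagen galactosyltransferase COLGALT1 rose by 0.40 (limma adjusted p 0.00459), and P3H1 and P3H4, of the collagen prolyl 3-hydroxylase family, rose by 0.36 (0.00514) and 0.32 (0.0193). The call of P3H4 was lost without any array other than shPGC-1alpha replicate 1 (adjusted p up to 0.0632).

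LUM and DCN encode lumican and decorin, small leucine-rich proteoglycans that bind collagen and govern fibril spacing, and decorin also binds TGF-beta. LUM read 9.41, 9.35 and 9.23 on the shPGC-1alpha arrays, against 8.60, 8.58 and 8.53 on the shGFP arrays. Its log2 difference was 0.76 (SE 0.07), or 1.69-fold, with replicate 3 the lowest array of each group. DCN read 4.67, 4.60 and 4.61 on the shPGC-1alpha arrays, against 3.66, 3.86 and 3.88 on the shGFP arrays. All shPGC-1alpha values of DCN lay above 4.43 and all shGFP values below it, so the control level is close to the dim end of the arrays. The log2 difference of DCN was 0.83 (SE 0.08), or 1.77-fold.

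LUM and DCN are immediate neighbours on chromosome 12, in a cluster with EPYC and KERA, which encode related proteoglycans. EPYC averaged 3.62 ± 0.03 in shPGC-1alpha cells and 3.55 ± 0.07 in shGFP cells (SD, n = 3 each; limma adjusted p 0.539), and KERA averaged 2.73 ± 0.12 and 2.74 ± 0.13 (0.963). CCER1, at the far end of the stretch, differed by 0.03 (limma adjusted p 0.909). Over all 14 other measured proteoglycans of this family, 0 rose and 1 fell, or 7.14% against 21.8% of all genes. Of the 14, 5 had means below the 20th percentile of gene means. Their median log2 difference over all 14 was -0.01, against -0.02 over all genes. The one that fell was FMOD, fibromodulin, at -0.51 (limma adjusted p 0.0184), which did not pass once shGFP replicate 1, shGFP replicate 3 or shPGC-1alpha replicate 3 was left out (adjusted p up to 0.067). BGN, biglycan, the closest relative of decorin, averaged 7.92 ± 0.04 in shPGC-1alpha cells and 8.12 ± 0.14 in shGFP cells (limma adjusted p 0.143), and was named after its values were seen.

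CRISPLD2 encodes a secreted protein with a CAP domain and LCCL domains, known for binding lipopolysaccharide and for its role in lung development. It read 8.95, 9.03 and 8.84 on the shPGC-1alpha arrays, against 10.71, 10.67 and 10.66 on the shGFP arrays. The highest shPGC-1alpha array lay 1.63 below the lowest shGFP array. The mean was 8.94 ± 0.09 in shPGC-1alpha cells and 10.68 ± 0.03 in shGFP cells (SD, n = 3 each), a log2 difference of -1.74 (SE 0.07). Its paralogue CRISPLD1 fell by 0.44 (limma adjusted p 0.018), but passed only with replicates 2 and 3 of both groups present (adjusted p up to 0.0652 otherwise). GLIPR1, another CAP domain protein, rose by 0.40 (limma adjusted p 0.00813). In all, 10 other CAP domain genes were measured, with 1 higher and 1 lower, or 20% against 21.8% of all genes. Without shGFP replicate 3, 2 of them rose.

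**Figure D3:**
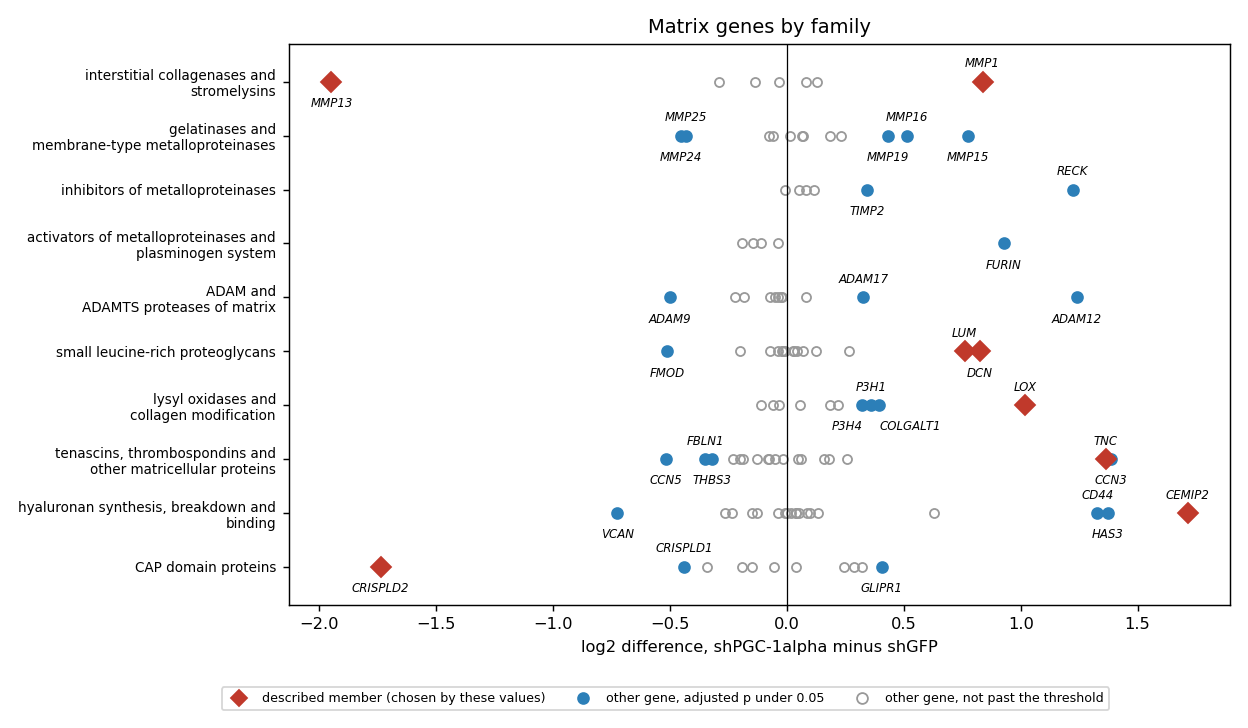
Log2 difference, shPGC-1alpha minus shGFP, of every measured gene of the matrix lists, a row per family. Red diamonds are the 8 described genes, which were chosen by these values, blue points are other genes past a limma adjusted p of 0.05, and open circles are other genes that did not pass. MMP13 and CRISPLD2 lie farthest left and CEMIP2 farthest right.

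Over all families, 107 further matrix genes were measured, of which 15 rose and 9 fell, so 22.4% passed against 21.8% of all genes. Higher calls made up 9.58% and lower calls 12.2% of all genes. The median log2 difference of the 107 was -0.01, against -0.02 over all genes. The 9 that fell were reduced to 5 without shGFP replicate 3, while lower calls over all genes went from 1817 to 1301. Over both directions together, the share past the threshold was thus close to the background. By direction it differed, since more of the 107 rose than fell, while more of all genes fell than rose. Of the 107, 28 lay below the 20th percentile of gene means. With such dim genes left out, 29 of 79 passed (18 higher, 11 lower), against 3661 of 11907 genes (1602 higher, 2059 lower). Collagen genes were not analysed here. Of 6 collagen receptors 2 rose and 1 fell, or 50%, and 0 of the 6 lay below the 20th percentile. The receptor kinase DDR1 rose by 0.59 (limma adjusted p 0.00294), DDR2 rose by 0.35 (0.0281) and the syndecan SDC1 fell by 0.30 (0.0195). The call of DDR2 was lost without any array other than shGFP replicate 1 (adjusted p up to 0.0884), and that of SDC1 when shGFP replicate 2, shGFP replicate 3 or shPGC-1alpha replicate 1 was dropped (up to 0.0738).

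Promoter sequence was at hand in RefSeq, build GRCh38.p14, for TNC, LOX, CEMIP2 and CRISPLD2. Each window covers 250 bases before and 50 after a start site. For TNC, LOX and CRISPLD2 that site is the annotated outer start of the gene. For CEMIP2 it lies inside the gene, whose annotated outer start is at chr9:71769466, so that window does not describe the outer start. The sequences are shown so that the motif matches of these members can be read in place. Both strands were searched for TGANTCA, an AP-1 site, for GGGNNTTCC, a form of NF-kB site, for ACGTG, the core of a hypoxia response element, and for the TATAAA motif. Capitals mark the matches, which did not overlap each other, and all sequences run 5′ to 3′ on the strand of the gene. TNC is at chr9:115118108-115118407 (minus strand), LOX at chr5:122078210-122078509 (minus), CEMIP2 at chr9:71768464-71768763 (minus) and CRISPLD2 at chr16:84819735-84820034 (plus).
TNC: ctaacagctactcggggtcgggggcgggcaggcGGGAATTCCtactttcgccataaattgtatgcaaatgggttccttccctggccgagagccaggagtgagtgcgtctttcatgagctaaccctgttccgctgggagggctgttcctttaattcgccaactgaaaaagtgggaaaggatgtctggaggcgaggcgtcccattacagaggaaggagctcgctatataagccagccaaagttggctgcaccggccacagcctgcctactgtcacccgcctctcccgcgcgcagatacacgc
LOX: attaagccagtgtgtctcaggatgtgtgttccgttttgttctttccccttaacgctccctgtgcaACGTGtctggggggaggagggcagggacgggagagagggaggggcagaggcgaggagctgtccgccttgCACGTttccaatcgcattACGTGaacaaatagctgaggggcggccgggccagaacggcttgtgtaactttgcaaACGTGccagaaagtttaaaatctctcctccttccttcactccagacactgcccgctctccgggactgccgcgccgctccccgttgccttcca
CEMIP2: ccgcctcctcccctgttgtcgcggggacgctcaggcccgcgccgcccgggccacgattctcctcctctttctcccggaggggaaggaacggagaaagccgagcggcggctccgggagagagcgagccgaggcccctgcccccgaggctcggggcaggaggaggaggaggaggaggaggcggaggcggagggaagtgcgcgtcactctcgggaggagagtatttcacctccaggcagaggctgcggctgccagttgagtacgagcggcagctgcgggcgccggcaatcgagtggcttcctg
CRISPLD2: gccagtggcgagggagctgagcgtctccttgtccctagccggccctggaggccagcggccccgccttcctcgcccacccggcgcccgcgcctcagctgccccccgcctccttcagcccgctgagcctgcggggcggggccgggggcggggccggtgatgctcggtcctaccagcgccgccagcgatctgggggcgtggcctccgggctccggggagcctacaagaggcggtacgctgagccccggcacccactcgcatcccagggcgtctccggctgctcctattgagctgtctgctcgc

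The TNC window held 1 NF-kB match, GGGAATTCC, from -217 to -209 relative to the start site, as 6.56% of 27305 promoters hold at least 1. The LOX window held 4 ACGTG cores, beginning at -185, -116, -98 and -42. At least 1 such core was present in 21.6% of all promoters, and 4 or more in 0.886%. The cutoff of 4 was taken from the LOX window itself, for this motif only, so that share is a description and no test. The windows of CEMIP2 and CRISPLD2 held 0 matches to any of the 4 motifs. AP-1 and TATAAA motifs, present in 7.75% and 12% of all promoters, were found in 0 of the 4 windows. The windows of CRISPLD2 and CEMIP2 were richer in G and C, at 75.3% and 70.7%, than those of LOX and TNC, at 58.0% and 57.3%, against a median of 58.3% over all promoters. A match describes letters in the window and was not tested as a binding site.

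Transcription factors known to act on collagenase genes, the AP-1, ETS and RUNX families, were also measured. Of 17, 7 rose and 1 fell, or 47.1% against 21.8% of all genes, with a median log2 difference of 0.26. Of the 17, 0 lay below the 20th percentile of gene means, and 3661 of 11907 genes passed with such dim genes left out. The AP-1 subunit FOSL1 read 10.04, 10.01 and 10.28 on the shPGC-1alpha arrays, against 9.10, 9.24 and 9.30 on the shGFP arrays, a rise of 0.89 (SE 0.10, limma adjusted p 0.000822). ETS1 rose by 0.69 (limma adjusted p 0.00033), ETS2 by 0.46 (0.00416), ATF3 by 0.51 (0.00321) and RUNX1 by 0.46 (0.00348). More genes of this list were named after their values were seen. FOSL2 and MAFF rose by 0.35 (limma adjusted p 0.0129) and 0.56 (0.0074). The AP-1 subunits JUN, FOSB, JUNB and FOS did not pass, at 0.29 (limma adjusted p 0.0623), 0.18 (0.333), 0.07 (0.589) and 0.01 (0.978). JUND, another subunit, did not pass at -0.22 (limma adjusted p 0.0729). RUNX2, a bone and cartilage factor known to activate MMP13 there, read 7.39, 7.29 and 7.21 on the shPGC-1alpha arrays, against 8.53, 8.22 and 8.35 on the shGFP arrays. It fell by 1.07 (SE 0.10, limma adjusted p 0.000424), and the part of any of these factors in the values of MMP1 or MMP13 was not tested.

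Interleukin-1 and oncostatin M can induce matrix proteases in other cells. A mixed list of interleukin-1, oncostatin and related cytokine signals, which also held the interleukin-6 receptor and TNF, had 10 measured genes. Of these, 7 rose and 0 fell, or 70% against 21.8% of all genes. Of the 10, 1 lay below the 20th percentile of gene means, and 3661 of 11907 genes passed with such dim genes left out. The cytokines OSM (limma adjusted p 0.0889) and TNF (0.968) and the interleukin-1 receptor antagonist IL1RN (0.927) did not pass. Those that did not pass were named after their values were seen. The receptor IL6R rose to 8.10 ± 0.11 in shPGC-1alpha cells, against 6.42 ± 0.05 in shGFP cells (SD, n = 3 each; limma adjusted p 3.95e-05). IL1RAP, the accessory chain of the interleukin-1 receptor, rose by 1.06 (limma adjusted p 0.000291), the feedback inhibitor SOCS3 by 0.94 (0.000797), LIFR by 0.50 (0.00307), OSMR by 0.45 (0.00221) and LIF by 0.34 (0.0152). STAT3, named after its values were seen, rose by 0.27 (limma adjusted p 0.0203). The call of LIF was lost without shGFP replicate 2 (0.0594), and with the dimmer probe set of SOCS3 its adjusted p was 0.218. The higher calls of this list numbered 5 without shGFP replicate 2. Without shGFP replicate 3, or without any single shPGC-1alpha array, they numbered 6. In the TGF-beta pathway 5 of 13 measured genes rose and 4 fell, or 69.2%, and 0 of the 13 lay below the 20th percentile. The latency protein LTBP3 fell by 0.87 (limma adjusted p 0.000232), and the signal transducers SMAD4 and SMAD2 by 0.52 (0.00177) and 0.32 (0.0136), while the inhibitors SMAD7, SKI and SKIL rose by 0.45 (0.00406), 0.36 (0.00691) and 0.34 (0.00875). Other members of the list, named after their values were seen, differed from that split. LTBP2, of the latency protein family, rose by 0.37 (limma adjusted p 0.0148, but 0.0578 without shGFP replicate 2), and the corepressor TGIF1 fell by 0.21 (0.0425, but 0.0797 to 0.129 without any single array). The inhibitor SMAD6 rose by 0.34 (limma adjusted p 0.0295), and it passed without shGFP replicate 3 but not without any other array (up to 0.0917). The transducer SMAD3 differed by -0.07 (limma adjusted p 0.536). Without shGFP replicate 2 the counts of this list were 3 higher and 2 lower, and the adjusted p of SMAD2 was 0.0507.

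**Figure D4:**
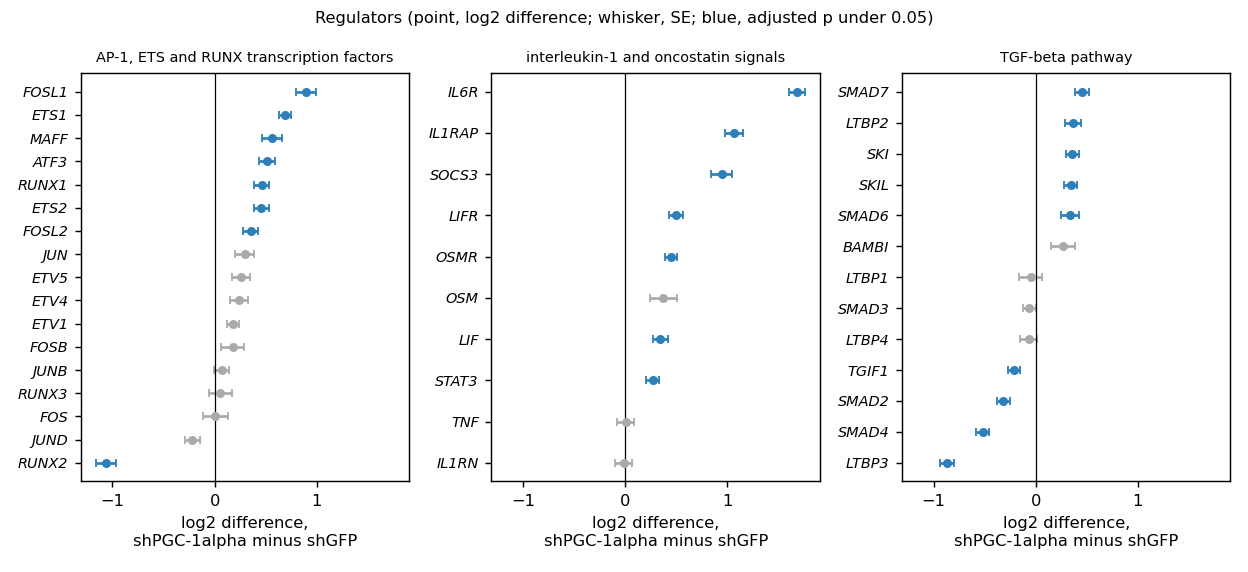
Log2 difference, shPGC-1alpha minus shGFP, with its SE, of measured genes. The left panel holds transcription factors of the AP-1, ETS and RUNX families and the right panel TGF-beta pathway genes. The middle panel holds the mixed list of interleukin-1, oncostatin and related cytokine signals, with IL6R and TNF. Blue points passed a limma adjusted p of 0.05 and grey points did not. FOSL1 lies at 0.89 and RUNX2 at -1.07, and IL6R lies at 1.68.

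A list of epithelial markers, which also held the mesenchymal gene VIM, was measured as well. Of its 13 measured genes, 1 rose and 7 fell, or 61.5% against 21.8% of all genes, with a median log2 difference of -0.32. Their mean level was 7.31 to 7.41 on shPGC-1alpha arrays and 7.59 to 7.69 on shGFP arrays. Of the 13, 1 lay below the 20th percentile of gene means, and 3661 of 11907 genes passed with such dim genes left out. VIM differed by 0.09 (limma adjusted p 0.354). Without VIM, a choice made after seeing the data, 1 of 12 rose and 7 fell, or 66.7%, with a median of -0.39 and a mean level of 7.04 to 7.15 on shPGC-1alpha arrays and 7.36 to 7.46 on shGFP arrays. The tight junction gene CLDN1 rose by 1.33 (limma adjusted p 5.41e-05), the keratin KRT19 fell by 1.42 (0.000159), and the epithelial splicing regulators ESRP2 and ESRP1 fell by 1.09 (0.000382) and 0.62 (0.00505). EPCAM fell by 0.73 (limma adjusted p 0.000531) and TJP1 by 0.47 (0.00191). Without shGFP replicate 3, 2 of these markers rose. Of the 8 fibroblast markers, PRRX1 rose by 0.35 (limma adjusted p 0.0314), but passed only with replicates 1 and 2 of both groups present (up to 0.0941 otherwise). Among 5 leukocyte markers CSF1R fell by 0.48 (limma adjusted p 0.00274). Whether these markers bear on the values of the matrix genes was not tested.

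Likeness to the 8 genes was measured by Pearson's r over the 6 arrays, among 185 other protein-coding genes with a log2 difference of at least 1 in either direction and a mean at or above the 20th percentile. With 2 groups of 3 arrays, r mostly reflects the difference between the groups, so the values describe and do not single out. SCG5, a secretory granule protein, was among the nearest 2 for TNC (0.999), LOX (0.999) and CEMIP2 (0.999), with a log2 difference of 1.51. The other nearest genes were CLDN1 for TNC (0.998), the neutral cholesterol ester hydrolase NCEH1 for LOX (0.999) and the chemokine CCL20 for CEMIP2 (1.00 after rounding). For MMP1 they were the GABA transaminase ABAT and the metallothionein MT1X, both at 0.99, the lowest values of the 8 genes. For MMP13 they were LRRC61 (0.998) and NADK2 (0.998), for LUM PSTPIP2 (0.998) and CCN3 (0.997), for DCN the transcription factor TFAP2C (0.999) and the kinase IRAK2 (0.999), and for CRISPLD2 the retinol dehydrogenase RDH10 (0.998) and PARD6B (0.998).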

How the data were processed

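The authors deposited log2 expression values, made with RMA and Affymetrix Expression Console per the submitters' processing notes, with software versions and the build of the genome not given in the sources used here. In all, the table held 53617 probe sets on 6 arrays, with values from 0.66 to 13.8, used as deposited. A platform annotation table named 16098 probe sets with 1 symbol and 37519 with none, and all 16098 gene identifiers matched RefSeq's gene table. The probe set with the highest mean stood for each of 14884 genes. Titles of the samples gave group and replicate number. If cultures were not separate, the p-values reflect only spread among these samples, which may be technical. Limma 3.58.1 in R 4.3.3 (lmFit, eBayes) compared shPGC-1alpha minus shGFP over all genes, two-sided, with Benjamini-Hochberg adjustment and a threshold of 0.05, after testing on simulated data. An exact permutation test of 3 against 3 arrays cannot go below 0.1. No pair of arrays shared more than 119 identical values. Of 338 listed genes in 22 lists, 202 were measured. The genes named were the 8 members, per list up to 6 genes past the threshold with the smallest p (2 where none passed), the measured genes of 2 clusters, TIMP1 to TIMP4, and the 2 genes most like each member, taken from protein-coding genes with settled names, a mean at or above the 20th percentile and a log2 difference of at least 1. Other genes were named after their values were seen, as said beside them. The members and lists were chosen with earlier results of these data known. Same-numbered arrays deviated together at r = 0.117, 0.087 and 0.023, against at most 0.002, 0.057 and 0.057 with other numbers. For replicates 1 and 2 the same-numbered value was thus the higher, and for replicate 3 the lower. The labels do not say that equal numbers form pairs, so numbers were not used to pair arrays in the main fit. Alternatives were each array left out, a replicate block, other probe sets, other scalings, a filter on dim genes and other tests.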

Additional observations from a re-analysis of the deposited data

How the results depend on the processing

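The differences of the 8 described genes have no test of their stability here: each has 1 probe set, a balanced block leaves a difference unchanged, and leaving out 1 of 3 arrays can move a mean little. Without single arrays the count of other matrix genes that fell was 5 to 8. Over all genes, 2328 to 2578 passed in those runs in place of 3243. Calls lost without an array, here and in the lists above, thus stand beside a loss of calls over all genes. With p-values adjusted over all 53617 probe sets, 1737 genes passed (767 higher, 970 lower) in place of 3243, and 14 other matrix genes in place of 24, of which 4 fell, since more features were tested. With the replicate number as a block 2773 genes and 23 other matrix genes passed. The numbers do not pair the arrays by the labels. Of 83 named genes outside the 8, 66 passed and 48 passed under every alternative that tested them. A change of direction was counted only where a gene passed in the main run or the alternative, and 0 such changes were found. Genes that passed in neither could change sign, as MMP12 did from 0.08 to -0.05 without shGFP replicate 1. Signal near the dim end limits MMP13 in shPGC-1alpha cells and DCN in both groups, most in shGFP cells.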
